A study of Mus musculus with 2 samples.

Results

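The osteopontin, fibronectin and receptor set holds 8 of the 22480 genes in the deposited tables: the ligands Spp1 (osteopontin) and Fn1 (fibronectin), the receptor Cd44, and the integrin subunits Itgav, Itga5, Itga9, Itgb1 and Itgb5. The members were chosen by symbol, with their levels across the cell classes of these same libraries already known, so those levels are given as a description and nothing is supported with them. All 8 were present in both tables. Gene expression had been measured in single cells of C57BL/6 mouse spinal cord at 8 weeks of age in droplets, with transcripts counted by unique molecular identifiers (UMIs, 1 tag per captured transcript). One library came from sham mice and the other from mice 3 days post injury (3 dpi); no other treatment or allele is given for either. Each was made from a dissociated 8 mm stretch of cord around the injury site, pooled over 5 male and 5 female mice, and the sources used here do not name the kind of injury. With 1 library per group there was no replicate and no test, and a difference between the 2 libraries cannot be told apart from one between sham and injury.

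Osteopontin is a secreted, heavily phosphorylated protein of bone and inflamed tissue, and fibronectin is a large dimeric glycoprotein that cells assemble into matrix. Both carry an arginine-glycine-aspartate motif read by integrins, which are pairs of an alpha and a beta subunit: alpha-v pairs with beta-1 or beta-5, and alpha-5 and alpha-9 pair with beta-1. Alpha-5 beta-1 is the classical fibronectin receptor, alpha-9 beta-1 binds osteopontin after its cleavage, and CD44 is the hyaluronan receptor that also binds osteopontin. In the injured nervous system, osteopontin is best known as a product of activated microglia and infiltrating macrophages.

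Cells were kept at 200 genes and 500 UMIs, and 9306 sham and 12108 3 dpi cells remained of 10138 and 13594 barcodes after the removal of called doublets. The libraries held 76889038 and 149291783 UMIs, with medians of 5522 and 9117 per barcode, and the kept cells of both shared 30 barcode sequences. Clusters were named "X-like" from fixed markers that include no member, and in each of the 16 combinations of class and library with at least 50 cells, all 10 to 15 of its markers lay at least 2-fold above the median class. The same markers gave the names, so their levels are no independent check of them. Levels are UMIs summed over the cells of a class and library per 1000000 UMIs of that sum (CPM). Brackets give 95% intervals (exact Poisson for levels, exact conditional for ratios, Clopper-Pearson for shares) that hold counting error alone and leave out how cells, mice or libraries vary. Levels are compared between cells for the same gene, not between genes.

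The promoter windows of Spp1 and Itgb5 are shown because their levels moved in opposite directions in microglia-like cells at 3 dpi. Of the 8 members, 7 had a window in RefSeq's table for GRCm38.p6, and Spp1 had 2 of them. Each runs from 250 bases before to 50 after the gene's start and is printed 5′ to 3′ on the gene's strand, and capitals mark motif matches on either strand. The files' own build is not settled, so these coordinates belong to RefSeq's table alone.
Spp1, chr5:104434861-104435160, + strand: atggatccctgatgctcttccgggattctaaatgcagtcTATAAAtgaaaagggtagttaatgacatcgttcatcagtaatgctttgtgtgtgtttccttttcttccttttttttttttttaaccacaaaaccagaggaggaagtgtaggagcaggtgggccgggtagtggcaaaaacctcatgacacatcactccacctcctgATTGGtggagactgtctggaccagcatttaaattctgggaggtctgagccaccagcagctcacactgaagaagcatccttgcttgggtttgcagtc
Itgb5, chr16:33829415-33829714, + strand: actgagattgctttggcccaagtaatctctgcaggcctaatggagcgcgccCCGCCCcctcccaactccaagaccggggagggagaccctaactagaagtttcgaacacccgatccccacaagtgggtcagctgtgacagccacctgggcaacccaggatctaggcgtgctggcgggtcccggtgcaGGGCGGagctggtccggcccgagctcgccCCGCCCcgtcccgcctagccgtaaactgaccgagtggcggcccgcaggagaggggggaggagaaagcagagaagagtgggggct
On both strands, 5 motifs were searched: the TATA box (TATAAA), the CCAAT box (CCAAT), the GC box (GGGCGG), the E-box (CACGTG) and the AP-1 motif (TGANTCA). No motif overlapped another in these windows. The Spp1 window held a TATA box 211 bases and a CCAAT box (read as ATTGG on this strand) 46 bases before the start, motifs that occur in 13.6% and 37.4% of all 32851 windows of this length. The Itgb5 window held 3 GC boxes, a motif found in 35.7% of all windows. GC boxes were also in the windows of Cd44, Itgav, Itgb1 and Itga5, so 5 of the 8 member windows held one, and the Itga9 window held an AP-1 motif (7.81% of all windows). The other Spp1 window held none of the 5 motifs, and no member window held an E-box. A match is a description of the letters, not of a bound factor.

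Spp1 was at or near background in most sham cells and reached several percent of all UMIs in the phagocytes of 3 dpi. Over all kept cells, 1897 Spp1 UMIs were counted in sham (29.0 [27.7 to 30.3] CPM) and 2515632 at 3 dpi (20419 [20394 to 20444] CPM). At 3 dpi the level was 37903 CPM [37839.5 to 37966] in microglia-like cells, the tissue's own phagocytes, and 33930.3 CPM [33864 to 33996] in monocyte/macrophage-like cells. Microglia-like cells held 55.0% [54.9 to 55.0] of all Spp1 UMIs of the 3 dpi library and made up 21.3% of its cells, and monocyte/macrophage-like cells held 40.6% [40.5 to 40.6] and made up 30.8%. That last share rests on cluster 0, which also carries markers of border-associated macrophages and kept the monocyte/macrophage name only by an exception set after the data were seen. With cluster 0 left unnamed, the other 1514 monocyte/macrophage-like cells held 3.28% of the Spp1 UMIs at 10664 CPM [10591 to 10737]. Every other named class lay between 889.9 and 2507 CPM, from oligodendrocyte precursor-like to ependymal-like cells. The unnamed cluster 19 (211 cells at 3 dpi) lay above this range, with 14694 CPM [14559 to 14830].

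**Figure D1:**
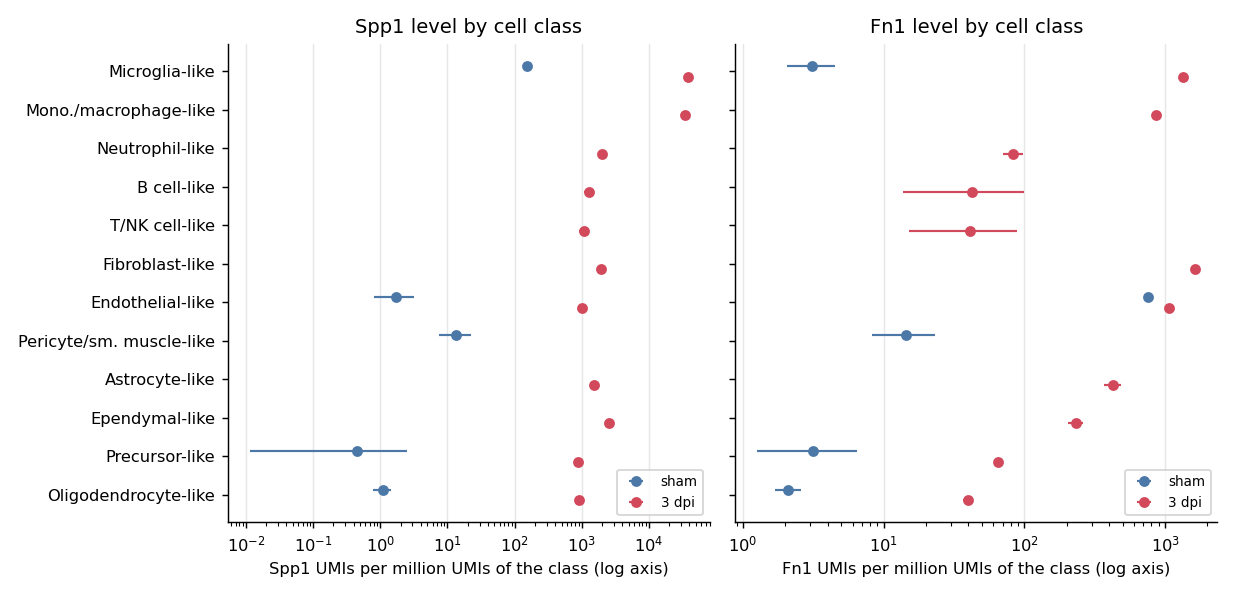
Spp1 (left) and Fn1 (right) level in each cell class, in CPM of the class on a log axis, for sham (blue) and 3 dpi (red), for classes with at least 50 cells in that library; bars are 95% counting intervals. At 3 dpi the Spp1 points of microglia-like and monocyte/macrophage-like cells stand at 37903 and 33930.3, and the other 9 named classes form a band from 889.9 to 2507. Fn1 is spread from 39.6 in oligodendrocyte-like to 1623 in fibroblast-like cells. Unnamed clusters are not drawn.

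Cells of these 2 classes differed widely among themselves. In microglia-like cells at 3 dpi the cell at the 10th percentile had 1527, the median cell 19915 and the cell at the 90th percentile 77889 Spp1 CPM, counted over its own UMIs. Spp1 reached at least 10000 CPM in 65.2% of microglia-like and 60.5% of monocyte/macrophage-like cells. It reached 22.5% and 19.9% of all UMIs in the highest single cells. The 258 microglia-like cells (10% of the class) with the most Spp1 UMIs held 40.7% of the class's Spp1 UMIs, and the same share of monocyte/macrophage-like cells held 41.6%. Cells also differed in depth, with medians of 13660 and 7025 UMIs per cell in the 2 classes.

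Among the macrophage clusters the Spp1 level differed widely, and Fn1 and Cd44 took a different order. Cluster 0 (2215 cells, led by Pf4, Lyz2, Arg1 and Gpnmb) had 41997 CPM [41912 to 42082] of Spp1, cluster 7 (1106 cells, led by Arg1, Thbs1, Chil3 and Plac8) 14083 CPM [13983 to 14183], and cluster 15 (408 cells, led by the antigen presentation genes Cd74, H2-Aa and H2-Ab1) 2823 CPM [2755 to 2892]. Fn1 was 521 CPM [511 to 530.4] in cluster 0, 2387 CPM [2346 to 2428] in cluster 7 and 546 CPM [516 to 577] in cluster 15. Cd44 was 185 CPM [179 to 190.3], 606 CPM [585 to 627] and 161 CPM [145 to 178] in the same order. Cluster 7, with the highest Fn1 level of the 3, also had the highest Cd44 level. The Fn1 intervals of clusters 0 and 15 overlapped, and a Fn1 UMI was seen in 36.3% of thinned cells in cluster 0 and 23.3% in cluster 15 (83.4% and 43.9% unthinned). With cluster 0 left unnamed, the class level of Fn1 was 1828 CPM [1798 to 1858] and that of Cd44 471 CPM [456 to 486], against 857 and 258 CPM with it. The large microglia-like clusters 2 (1816 cells) and 12 (691 cells) differed far less, with 38502 and 37059 CPM of Spp1, 1321 and 1370.3 CPM of Fn1 and 58.9 and 60.9 CPM of Cd44. The small and shallow microglia-like cluster 21 (65 cells, median depth 1145 UMIs) had 12982 CPM [12330 to 13660] of Spp1. Its Fn1 level was 726 CPM [578 to 900] and its Cd44 level 70.0 CPM [30.2 to 138]. Member genes were kept out of the genes used for clustering, but a gene that marks a cluster is no independent result about it. Median depth was 9525 UMIs in cluster 0, 4336 in cluster 7 and 5274 in cluster 15.

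**Figure D2:**
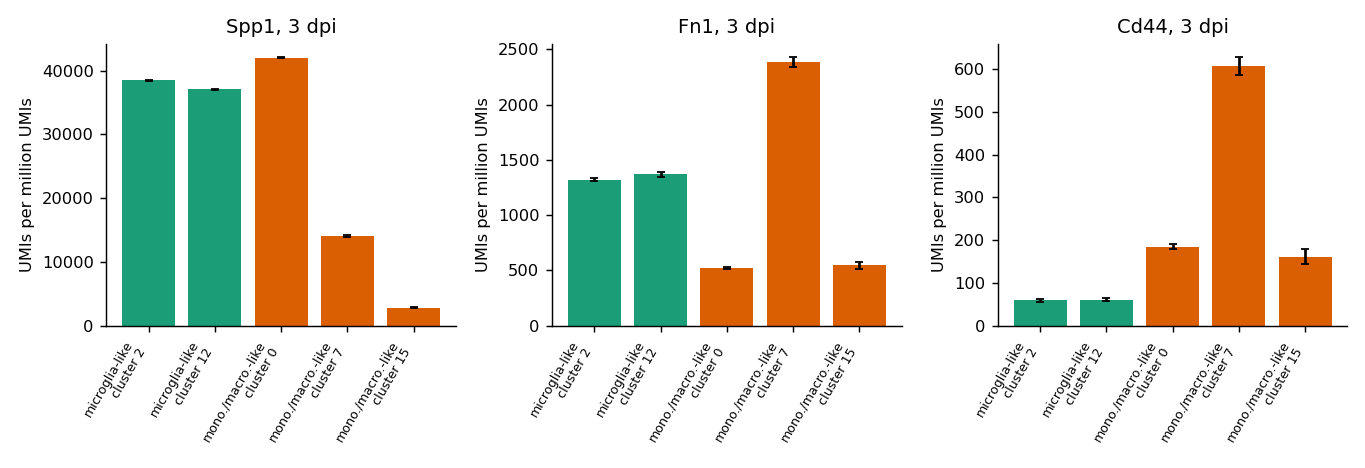
Spp1, Fn1 and Cd44 level at 3 dpi in the microglia-like clusters 2 and 12 (green) and the monocyte/macrophage-like clusters 0, 7 and 15 (orange), in CPM on axes that start at 0, with 95% counting intervals. Cluster 0 is highest for Spp1 (41997) and cluster 7 for Fn1 (2387) and Cd44 (606). The microglia-like cluster 21 (65 cells) is not drawn.

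Spp1 UMIs were also present outside microglia-like and monocyte/macrophage-like cells. At 3 dpi the other classes followed the order ependymal-like (2507 [2415 to 2601]), neutrophil-like (2028 [1960.1 to 2097]), fibroblast-like (1913 [1889 to 1937]), astrocyte-like (1496 [1386 to 1612]), B cell-like (1292 [1095 to 1515]), T or NK cell-like (1085 [923 to 1268]), endothelial-like (1000.2 [978 to 1023]), oligodendrocyte-like (909 [895 to 923]) and precursor-like cells (889.9 [873 to 907] CPM). The intervals of astrocyte-like and B cell-like cells overlapped, as did those of B cell-like and T or NK cell-like, T or NK cell-like and endothelial-like, and oligodendrocyte-like and precursor-like cells. With each cell thinned to 1000 UMIs, 95.8% of microglia-like, 92.4% of monocyte/macrophage-like, 72.2% of B cell-like and 58.9% of oligodendrocyte-like cells at 3 dpi held a Spp1 UMI (99.9%, 99.4%, 76.1% and 99.1% unthinned, at median depths of 13660, 7025, 1066 and 8309.5 UMIs). Shares below the B cell-like one were also those of fibroblast-like (67.0%, 99.3% unthinned), T or NK cell-like (65.7%, 76.6%), precursor-like (58.5%, 99.5%) and endothelial-like cells (57.9%, 97.1%). By level, however, fibroblast-like cells (1913 CPM [1889 to 1937]) lay above B cell-like cells (1292 CPM [1095 to 1515]). What part of any of these shares came from RNA of other cells was not tested. Neutrophil-like (79.0%, 82.8%), ependymal-like (76.0%, 100%) and astrocyte-like cells (74.2%, 80.5%) lay above the B cell-like share, inside its interval of 58.4% to 83.5%. Fewer cells entered the thinned shares of shallow classes, 54 of 88 B cell-like and 790 of 1456 neutrophil-like cells.

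C1qa, a complement gene of microglia, gave a yardstick for RNA from other cells. It read 106 CPM in oligodendrocyte-like and 7461 CPM in microglia-like cells at 3 dpi. Spp1 UMIs per C1qa UMI were 8.55 [8.16 to 8.97] in oligodendrocyte-like, 8.57 [8.06 to 9.11] in precursor-like, 8.37 [5.19 to 14.3] in T or NK cell-like, 7.85 [6.27 to 9.93] in astrocyte-like, 10.1 [9.39 to 10.9] in endothelial-like, 10.9 [9.70 to 12.3] in neutrophil-like and 11.7 [6.64 to 22.5] in B cell-like cells. The ratio was higher in fibroblast-like (18.1 [17.2 to 19.2]) and ependymal-like cells (24.5 [20.3 to 29.7]), whose intervals lie above those of the oligodendrocyte-like, precursor-like, endothelial-like and neutrophil-like cells. In the main Spp1 sources themselves it was 5.08 [5.06 to 5.10] in microglia-like and 17.7 [17.5 to 17.8] in monocyte/macrophage-like cells, so the fibroblast-like ratio lay near that of the macrophages and above that of the microglia. How much of the fibroblast-like Spp1 came from other cells was not tested. Within the fibroblast-like class, cluster 20 (232 cells) had 3508 CPM [3446 to 3571] and cluster 14 (459 cells) 1320.3 CPM [1297 to 1344] of Spp1.

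The few Spp1 UMIs of the sham library came from very few cells. Of the 1897 sham UMIs, 1291 (68.1%) lay in 3 cells with 707, 412 and 172 UMIs each. These 3 were among only 8 sham cells that joined cluster 2, the microglia-like cluster of 1816 3 dpi cells. Whether the 8 are cells of the sham cord or were carried over from the other library was not tested; 0 of the 8 had a barcode that the 3 dpi table also holds. The 3 cells held 40 UMIs of Cx3cr1 and 0 of P2ry12, both microglial genes, the latter known to fall on activation. The other 2168 sham microglia-like cells held 53 Spp1 UMIs together (5.92 CPM [4.43 to 7.74]). A further 417 UMIs lay in the 18 sham fibroblast-like cells, which read 5008 CPM [4539 to 5512] and of which 16 (88.9%) held a Spp1 UMI. The sham classes with at least 50 cells stood in the order microglia-like (152 [144 to 160.0]), pericyte or smooth muscle-like (13.4 [7.53 to 22.2]), endothelial-like (1.70 [0.813 to 3.12]), oligodendrocyte-like (1.08 [0.791 to 1.44]) and precursor-like (0.449 [0.0114 to 2.50]) cells (CPM). All 18 fibroblast-like cells lay in cluster 20, in which the 3 dpi cells read 3508 CPM.

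In microglia-like cells Spp1 was 152 CPM in sham, these 8 cells included, and 37903 CPM at 3 dpi, a difference of 249.8-fold [237 to 264]. Without the 8 sham cells of cluster 2, a setting chosen after the data were seen, the ratio was 6407-fold [4898 to 8553], so a few cells set the size of this fold and not its direction. The class lay in different clusters in the 2 libraries: 2084 of 2176 sham cells were in cluster 1, and 1816 and 691 of 2577 3 dpi cells in clusters 2 and 12. The summed level of the 15 microglial markers was 45385 CPM in sham and 20871 CPM at 3 dpi with none at 0. That of the 15 monocyte/macrophage markers was 442 CPM with 4 at 0 in sham and 3555 CPM with none at 0 at 3 dpi, of which Lyz2 made up 2671 CPM. Their part in the Spp1 level was not tested. Monocyte/macrophage-like cells numbered 11 in sham, too few for a ratio.

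Fn1 had a wider set of source cells, which differed between the libraries. In sham, 69.6% [68.4 to 70.7] of 6386 Fn1 UMIs lay in endothelial-like cells, the lining of vessels, at 753 CPM [731 to 776], and a further 26.7% lay in unnamed clusters, mainly one with both endothelial and pericyte markers. At 3 dpi, microglia-like cells held 44.4% [44.1 to 44.7] of 109822 UMIs, monocyte/macrophage-like cells 23.5%, fibroblast-like cells 18.9% and endothelial-like cells 7.28%. By level (CPM), fibroblast-like cells, which build collagen matrix, stood first with 1623 [1601 to 1646], before microglia-like (1336 [1324 to 1348]), endothelial-like (1069.9 [1047 to 1094]) and monocyte/macrophage-like cells (857 [847 to 868]). With cluster 0 left unnamed, the monocyte/macrophage-like level passes that of the fibroblast-like cells and the share falls to 12.9%. The unnamed cluster 19 (211 cells) read 1408 [1366 to 1450] at 3 dpi. Astrocyte-like cells read 425 [367 to 489] and ependymal-like cells 232 [204 to 262]. The lowest were neutrophil-like (83.2 [69.9 to 98.2]), precursor-like (65.1 [60.5 to 70.0]), B cell-like (42.5 [13.8 to 99.2]), T or NK cell-like (41.0 [15.03 to 89.1]) and oligodendrocyte-like cells (39.6 [36.8 to 42.6]). Each of these low neighbours had an interval that overlapped the next. In sham, after the endothelial-like cells, pericyte or smooth muscle-like cells read 14.3 [8.20 to 23.3], precursor-like 3.14 [1.26 to 6.47], microglia-like 3.10 [2.06 to 4.48] and oligodendrocyte-like cells 2.09 [1.68 to 2.57] CPM.

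In microglia-like cells Fn1 was 3.10 CPM [2.06 to 4.48] in sham (28 UMIs in 2176 cells) and 1336 CPM [1324 to 1348] at 3 dpi, a ratio of 431-fold [298 to 648]. Thinned to 1000 UMIs, a Fn1 UMI was seen in 0.191% of microglia-like cells in sham and 56.6% at 3 dpi, against 3.70% of B cell-like cells at 3 dpi (1.19%, 89.4% and 5.68% unthinned, at median depths of 3818, 13660 and 1066 UMIs). In endothelial-like cells the thinned share was 47.5% in sham and 58.6% at 3 dpi, and the level was 1.42-fold [1.37 to 1.47] higher at 3 dpi. In thinned microglia-like cells at 3 dpi, Spp1 and Fn1 were seen together in 55.3% [53.3 to 57.2], where the product of the single shares is 54.2%. In cluster 0 the joint share was 35.9% [33.9 to 37.9] and in cluster 7 it was 64.7% [61.8 to 67.6], close to the products of 35.8% and 63.0%. Most thinned cells held a Spp1 UMI (98.6% in cluster 0, 88.4% in cluster 7 and nearly all microglia-like cells). That leaves a joint share little room to differ from the product, so nothing is read from their closeness.

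**Figure D3:**
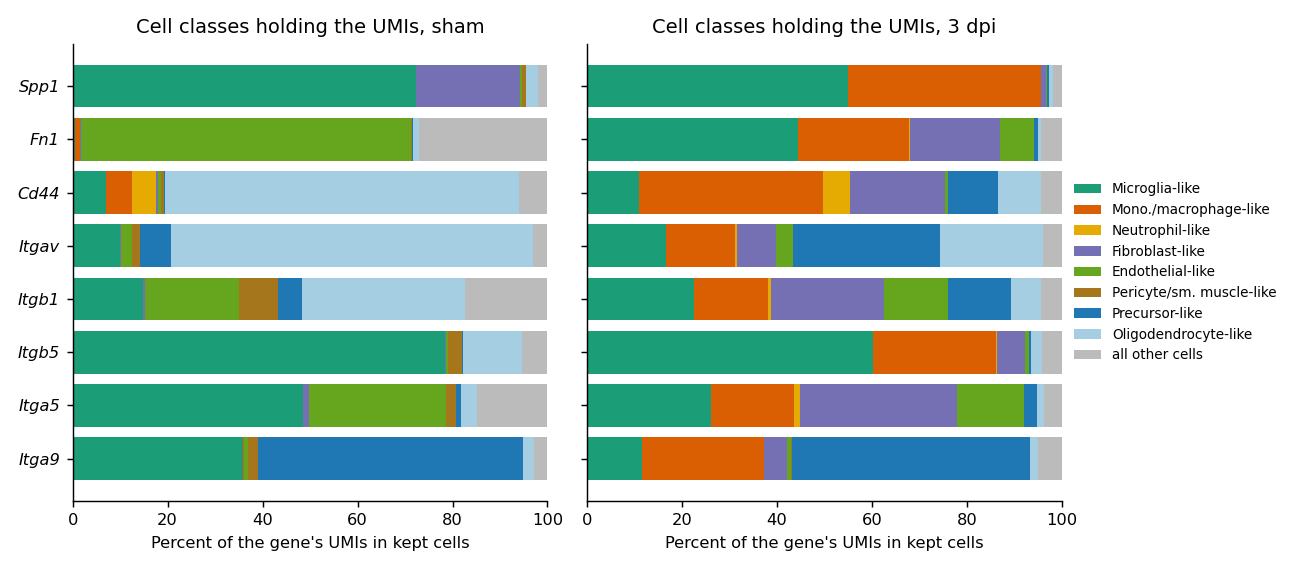
Share of each member's UMIs held by each cell class, in percent of the gene's UMIs in kept cells, in sham (left) and at 3 dpi (right). Microglia-like and monocyte/macrophage-like cells together hold nearly all Spp1 UMIs at 3 dpi (55.0% and 40.6%), Fn1 passes from endothelial-like cells in sham (69.6%) to several classes, and Itgb5 stays mostly in microglia-like cells (78.4% in sham, 60.3% at 3 dpi). Shares follow the number and depth of cells in a class as well as their level.

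Among the receptors, Cd44 had its highest class level in neutrophil-like cells. Monocyte/macrophage-like cells, a main Spp1 source, held 7772 of its 20013 UMIs at 3 dpi. At 3 dpi the order was neutrophil-like (693 [654 to 735]), fibroblast-like (311 [301 to 321]), astrocyte-like (267 [222 to 319]), monocyte/macrophage-like (258 [253 to 264]), precursor-like (186 [178 to 194]), ependymal-like (152 [130.4 to 177]), T or NK cell-like (150.2 [94.1 to 227]), oligodendrocyte-like (101 [96.1 to 105]), microglia-like (59.6 [57.1 to 62.2]), B cell-like (34.0 [9.27 to 87.1]) and endothelial-like cells (17.3 [14.4 to 20.5] CPM). Astrocyte-like cells overlapped fibroblast-like and monocyte/macrophage-like cells, T or NK cell-like overlapped precursor-like, ependymal-like and oligodendrocyte-like cells, and B cell-like overlapped microglia-like and endothelial-like cells. The monocyte/macrophage-like level was 471 CPM [456 to 486] with cluster 0 left unnamed, above the fibroblast-like level. The microglia-like level was 3.77 CPM in sham, with 34 UMIs. In precursor-like cells Cd44 was counted 1 time in 347 sham cells and 2096 times in 883 3 dpi cells. In oligodendrocyte-like cells, the myelinating cells, it was 8.59 CPM [7.73 to 9.52] among sham cells and 101 CPM [96.1 to 105] in those of 3 dpi. Cd44 UMIs per C1qa UMI were 1.79 [1.67 to 1.92] in precursor-like and 0.947 [0.888 to 1.01] in oligodendrocyte-like cells. They were lower in B cell-like (0.308 [0.0731 to 0.996]) and endothelial-like cells (0.175 [0.144 to 0.211]). T or NK cell-like (1.16 [0.598 to 2.26]), astrocyte-like (1.40 [1.06 to 1.87]) and ependymal-like cells (1.49 [1.17 to 1.90]) had intervals overlapping the precursor-like one. Fibroblast-like (2.95) and neutrophil-like cells (3.73) lay above it. C1qa is a gene of microglia, whereas Cd44 was highest in neutrophil-like cells. Where the glial Cd44 UMIs came from was not tested. Thinned, 14.01% of precursor-like and 8.87% of oligodendrocyte-like cells at 3 dpi held a Cd44 UMI, against 0.752% of endothelial-like cells (59.7%, 41.3% and 17.4% unthinned, at median depths of 11323, 8309.5 and 14084 UMIs). The thinned share was 1.85% in B cell-like, 14.7% in ependymal-like, 17.9% in T or NK cell-like and 21.2% in astrocyte-like cells.

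Itgb5, the beta subunit of the alpha-v beta-5 vitronectin receptor, was mainly a microglial gene. Microglia-like cells read 1035 CPM [1014 to 1056] among sham cells and 463 CPM [456 to 469.9] in those of 3 dpi, 2.24-fold [2.18 to 2.29] lower. Pericyte or smooth muscle-like cells of sham, which wrap vessels, read 320.0 CPM [288 to 355], and monocyte/macrophage-like cells of 3 dpi 241 CPM [235 to 246]. The full order at 3 dpi was microglia-like (463 [456 to 469.9]), monocyte/macrophage-like (241 [235 to 246]), fibroblast-like (129 [123 to 135]), ependymal-like (71.3 [56.5 to 88.7]), astrocyte-like (56.9 [37.2 to 83.4]), neutrophil-like (41.9 [32.7 to 52.9]), oligodendrocyte-like (36.4 [33.6 to 39.2]), endothelial-like (31.6 [27.7 to 35.9]), T or NK cell-like (13.7 [1.65 to 49.3]), precursor-like (9.76 [8.02 to 11.8]) and B cell-like (8.50 [0.215 to 47.4]) cells, with overlapping neighbours ependymal-like with astrocyte-like, astrocyte-like with neutrophil-like, neutrophil-like with oligodendrocyte-like, oligodendrocyte-like with endothelial-like, endothelial-like with T or NK cell-like, T or NK cell-like with precursor-like and precursor-like with B cell-like. Endothelial-like cells were low in both libraries, with 8.82 CPM [6.59 to 11.6] among sham cells and 31.6 CPM [27.7 to 35.9] in those of 3 dpi. The alpha partner Itgav was highest in precursor-like cells (189.8 CPM [172 to 209] in sham, 312 CPM [302 to 322] at 3 dpi), followed at 3 dpi by ependymal-like (192), astrocyte-like (142) and oligodendrocyte-like cells (134 CPM). The astrocyte-like interval [109.9 to 181] overlapped those of both neighbours. The other classes of 3 dpi had 13.7 (T or NK cell-like) to 72.9 CPM (fibroblast-like). In microglia-like cells Itgav was 71.8 [66.4 to 77.5] in sham and 52.0 [49.7 to 54.4] CPM at 3 dpi. Both subunits of alpha-v beta-5 were seen in 5.10% [4.20 to 6.14] of thinned sham and 2.12% [1.59 to 2.75] of thinned 3 dpi microglia-like cells (22.9% and 45.4% unthinned), near the products of 4.99% and 2.13%.

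Itga5, the alpha subunit of the fibronectin receptor, was highest in the fibroblast-like (177 CPM [169.8 to 184]) and endothelial-like cells (129 CPM [121 to 138]) of 3 dpi. Both were among the 3 classes with the highest Fn1 level. With cluster 0 left unnamed, monocyte/macrophage-like cells stand first at 1828 CPM of Fn1, and endothelial-like cells are no longer among those 3. Microglia-like cells, with more Fn1 (1336 CPM) than endothelial-like cells, had 49.3 CPM of Itga5. In sham, endothelial-like cells had 13.9 CPM [11.1 to 17.3]. Its partner Itgb1, the shared beta subunit, was highest in sham pericyte or smooth muscle-like (659.7 CPM [613 to 709]), 3 dpi fibroblast-like (542 CPM [529 to 555]) and 3 dpi endothelial-like cells (522 CPM [506 to 539]), the last against 303 CPM [289 to 317] in sham. The order of Itga5 at 3 dpi was fibroblast-like (177 [169.8 to 184]), endothelial-like (129 [121 to 138]), astrocyte-like (83.2 [58.9 to 114]), ependymal-like (73.9 [58.9 to 91.7]), neutrophil-like (50.3 [40.1 to 62.2]), microglia-like (49.3 [47.1 to 51.7]), monocyte/macrophage-like (39.7 [37.5 to 42.1]), T or NK cell-like (20.5 [4.22 to 59.8]), precursor-like (16.7 [14.4 to 19.2]), oligodendrocyte-like (5.69 [4.65 to 6.89]) and B cell-like (0) cells, and the neighbours that overlapped were astrocyte-like with ependymal-like, ependymal-like with neutrophil-like, neutrophil-like with microglia-like, monocyte/macrophage-like with T or NK cell-like, T or NK cell-like with precursor-like and oligodendrocyte-like with B cell-like. For Itgb1 the 3 dpi order was fibroblast-like (542 [529 to 555]), endothelial-like (522 [506 to 539]), ependymal-like (436 [398 to 476]), precursor-like (340.3 [329.6 to 351]), T or NK cell-like (266 [189 to 364]), astrocyte-like (197 [158 to 242]), microglia-like (181 [176 to 185]), monocyte/macrophage-like (150.1 [146 to 154]), neutrophil-like (116 [100.3 to 134]), oligodendrocyte-like (100.2 [95.6 to 105]) and B cell-like (42.5 [13.8 to 99.2]) cells, and the overlapping pairs were fibroblast-like with endothelial-like, precursor-like with T or NK cell-like, T or NK cell-like with astrocyte-like, astrocyte-like with microglia-like, neutrophil-like with oligodendrocyte-like and oligodendrocyte-like with B cell-like. Both subunits of alpha-5 beta-1 were seen in 0.441% [0.162 to 0.957] of thinned sham and 5.76% [3.69 to 8.52] of thinned 3 dpi endothelial-like cells, and in 6.55% [4.82 to 8.67] of fibroblast-like cells at 3 dpi (4.10%, 59.8% and 74.0% unthinned). In B cell-like cells 0 UMIs of Itga5 were counted, which allows up to 25.5 CPM at a limit of 3 counts. Both orders depend on cluster 0. Without it, monocyte/macrophage-like cells had 58.9 CPM [53.6 to 64.5] of Itga5, above microglia-like cells. That interval overlapped those of astrocyte-like, ependymal-like and neutrophil-like cells. Their Itgb1 level without cluster 0 was 171 CPM [161 to 180], with an interval that overlapped the microglia-like one.

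Itga9, the alpha subunit that binds cleaved osteopontin, was highest in oligodendrocyte precursor-like cells, the progenitors of myelinating cells. They held 55.8% of its sham and 50.2% of its 3 dpi UMIs. Microglia-like cells held 309 of its 862 sham UMIs, and the monocyte/macrophage-like cluster 0 held 282 of its 1327 at 3 dpi. The precursor-like level was 216 CPM [197 to 236] among sham cells and 59.1 CPM [54.7 to 63.7] in those of 3 dpi, 3.65-fold [3.24 to 4.11] lower. In microglia-like cells it was 34.2 CPM [30.5 to 38.3] and 4.19 CPM [3.55 to 4.91], 8.16-fold [6.70 to 9.98] lower. Of the other classes with at least 50 cells at 3 dpi, monocyte/macrophage-like cells had the most (11.3 CPM [10.2 to 12.6]). In sham the order was precursor-like (216 [197 to 236]), microglia-like (34.2 [30.5 to 38.3]), pericyte or smooth muscle-like (15.2 [8.88 to 24.4]), endothelial-like (1.19 [0.477 to 2.45]) and oligodendrocyte-like (0.469 [0.287 to 0.725]) cells. The share of thinned precursor-like cells with both Itga9 and Itgb1 was 3.81% [2.05 to 6.43] in sham and 2.16% [1.31 to 3.36] at 3 dpi, and these intervals overlap. Itga9 and alpha-v share the partner Itgb1, and the share with both Itgav and Itgb1 was 4.11% [2.26 to 6.79] and 7.06% [5.46 to 8.96].

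**Figure D4:**
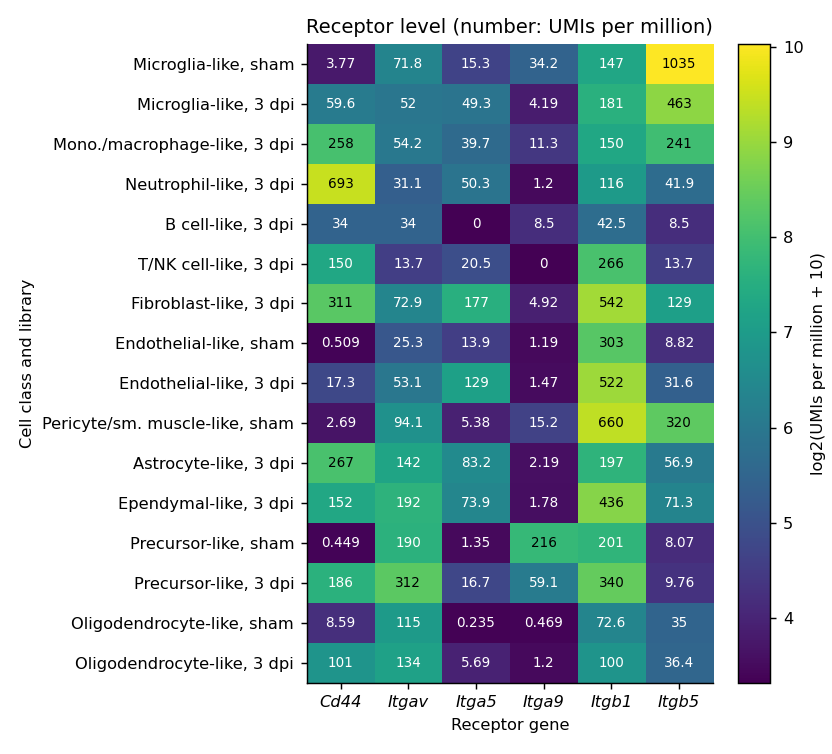
Level of the 6 receptor genes in each class and library with at least 50 cells; colour is log2 of CPM plus 10 and the printed number is CPM. The column of Itgb5 is highest in sham microglia-like cells (1035), that of Itga9 in sham precursor-like cells (216), that of Cd44 in 3 dpi neutrophil-like cells (693) and that of Itga5 in 3 dpi fibroblast-like cells (177).

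Microglia-like, oligodendrocyte-like, precursor-like and endothelial-like cells had 50 cells or more in each library, and these 4 classes were compared by a rule of size: a gene was measured at 20 CPM or more in 1 library, and called higher or lower when its CPM, with 10 CPM added to both, differed at least 2-fold. In microglia-like cells all 8 members were measured; 4 were higher at 3 dpi (Spp1, Fn1, Cd44 and Itga5) and 2 lower (Itgb5 and Itga9), where 11.8% and 16.5% of all 6202 measured genes were higher and lower. Their log2 ratios were 7.87, 6.68, 2.34, 1.23, -1.14 and -1.64, while Itgav (-0.40) and Itgb1 (0.28) stayed within the limit. The Itgb5 call was lost with median-of-ratios scaling (-0.95) and with the mean over cells (-0.99). The median over the 8 members was 0.75, against -0.15 over all measured genes. These members were chosen with these levels known, so nothing is read from the counts.

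In oligodendrocyte-like cells 6 members were measured and 3 were higher (Spp1 6.37, Fn1 2.04 and Cd44 2.57), with 0 lower, where 5.54% and 4.19% of 6320 measured genes were higher and lower. When 5% of each class sum was subtracted as free RNA with the profile of the library, Spp1 and Fn1 both went to 0 and lost the call, and Cd44 kept 2.52. The 5% was an assumed figure, not one estimated from these libraries. Calls lost at this setting, here and in the other classes, hang on that figure and do not show where the UMIs came from. In precursor-like cells 6 were measured, 3 were higher (Spp1 6.43, Fn1 2.51 and Cd44 4.23) and 1 lower (Itga9 -1.71), where 7.68% and 12.9% of 8042 genes were. With free RNA subtracted, Spp1 went to 0, Fn1 to 1.66 and Cd44 to 4.29. Cd44 and Spp1 rest on 1 sham UMI each in precursor-like cells, so their ratios of 414-fold [74.3 to 16374] and 1984-fold [356 to 78358] have wide intervals. The 3 dpi precursor-like cells lay mostly in cluster 10 (844 of 883) and the sham cells in cluster 18 (256 of 347), and the summed level of 13 oligodendrocyte markers was 16094 CPM in the sham and 1238 CPM in the 3 dpi cells. Its part in these differences was not tested.

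In endothelial-like cells 6 members were measured and 3 were higher (Spp1 6.43, Itga5 2.54 and Itgb5 1.14), with 0 lower, where 8.31% and 13.9% of 7078 genes were. Fn1 (0.50), Itgb1 (0.77) and Itgav (0.84) stayed within the limit. Spp1 turned to -0.037 when free RNA was subtracted, and Itga5 kept 2.55. The Itgb5 call was lost with called doublets kept (0.75) and with the mean over cells (0.90), and with median-of-ratios scaling Itgav and Itgb1 passed the limit (1.09 and 1.09). Sham cells lay in cluster 5 (1411 of 1416) with a median depth of 3225 UMIs and 3 dpi cells in cluster 16 (381 of 408) with a class median of 14084. The summed level of 13 endothelial markers was 31132 CPM in sham and 9527 CPM at 3 dpi, with none at 0. In the same cells the 12 fibroblast markers summed to 10.52 CPM (2 at 0) and 205 CPM (1 at 0), the 13 oligodendrocyte markers to 4329 and 671 CPM, and the 12 pericyte or smooth muscle markers to 916 and 644 CPM, with none of these at 0. Their part in the Itga5 and Itgb5 levels was not tested.

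**Figure D5:**
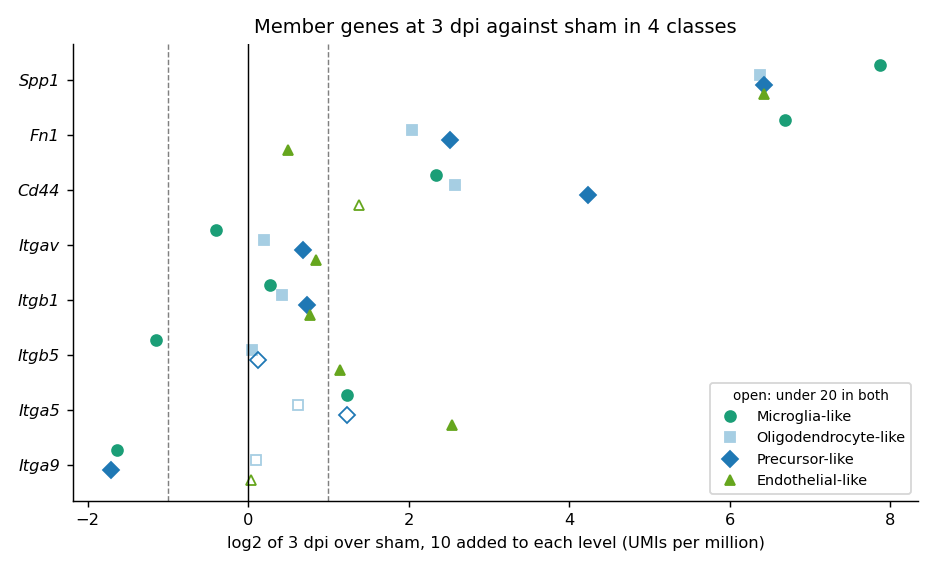
Log2 of the 3 dpi level over the sham level (10 CPM added to each) for each member in the 4 compared classes; dashed lines mark the 2-fold limits and open symbols genes under 20 CPM in both libraries. Spp1 lies to the far right in all 4 classes (from 6.37 to 7.87), whereas Itgb5 lies at -1.14 in microglia-like and 1.14 in endothelial-like cells.

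The wider pathway was read from 6 lists with 83 genes in the tables, none of them a member, and values for each named gene are given from sham to 3 dpi. In microglia-like cells, where 11.8% of all measured genes were higher and 16.5% lower, 4 of 6 measured hyaluronan and Cd44 partners were higher and 0 lower, among them Srgn, the proteoglycan serglycin (473 to 1381 CPM), and the scavenger receptor Stab1 (112 to 322 CPM). Of 4 measured proteases, kinase and crosslinker genes 2 were higher, including Tgm2, the transglutaminase that crosslinks fibronectin (38.7 to 161 CPM), and 2 of 2 measured syndecans were higher, including Sdc4 (66.3 to 188 CPM). None of 4 measured other integrin subunits passed the limit in either direction, and of 10 measured genes of the adhesion machinery 1 was higher and 1 lower. Of 5 measured other integrin ligands 1 was higher and 2 lower, with a median log2 ratio of -0.62 against -0.15 over all measured genes. In precursor-like cells, with a background of 7.68% higher and 12.9% lower, 4 of 7 measured other integrin ligands were higher and 2 lower: Tnc, the matrix protein tenascin-C, went from 1.35 to 167 CPM and the milk fat globule protein Mfge8 from 56.5 to 126 CPM, while Edil3 went from 186 to 27.3 CPM. There, 4 of 8 measured Cd44 partners were higher and 1 lower, with Hmmr, a hyaluronan-binding mitotic protein, at 14.8 to 163 CPM and Msn, which links CD44 to actin, at 41.7 to 264 CPM. Of 14 measured adhesion genes 2 were higher and 3 lower, among the latter Bcar1 (133 to 43.1 CPM). Of 3 measured other integrin subunits 1 was higher and 1 lower, and 1 of 4 measured protease, kinase and crosslinker genes and 1 of 3 measured syndecans were higher, with 0 lower.

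In endothelial-like cells, with a background of 8.31% higher and 13.9% lower, 6 of 11 measured other ligands were higher and 2 lower, with the basement membrane gene Nid1 at 41.2 to 163 CPM, Tgfb1 at 116 to 251 CPM and Cyr61 at 638 to 197 CPM. Of 9 measured Cd44 partners 3 were higher and 1 lower, with Msn at 363 to 956 CPM and Srgn at 901 to 379 CPM. Of 5 measured other integrin subunits 1 was higher and 1 lower, the latter the collagen-binding subunit Itga1 (412 to 173 CPM). Of 14 measured genes of the adhesion machinery 2 were higher and 2 lower, with the crosslinker of actin Actn1 at 86.2 to 230.2 CPM, Tns1 at 359.6 to 105 CPM and Parvb at 323 to 95.5 CPM, and of 3 measured protease, kinase and crosslinker genes 1 was higher and 1 lower, the latter the tissue plasminogen activator Plat (364 to 130.3 CPM). The 1 measured syndecan stayed within the limit. In oligodendrocyte-like cells, with a background of 5.54% higher and 4.19% lower, 2 of 3 measured Cd44 partners (Msn, 56.8 to 126 CPM) and 2 of 9 measured adhesion genes (the focal adhesion protein Zyx, 73.1 to 175 CPM) were higher. Of 4 measured other ligands 1 was higher and 1 lower, the latter Edil3, an integrin ligand (545 to 215 CPM). Of 2 measured other integrin subunits 0 were higher and 1 lower, the 1 measured syndecan was higher, and the 1 measured protease, kinase or crosslinker gene stayed within the limit.

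Over the 16 combinations of class and library, the genes whose log2 level followed Spp1 most closely, of 4937 at 100 CPM or more somewhere, were Hmox1, the heme-degrading enzyme (Pearson r 0.95), the galectin Lgals3 (0.93), the lysozyme gene Lyz2 (0.93), Pfn1 (0.89) and Emp3 (0.89). Those closest to Fn1 were Srp9 (0.89), the endocytic adaptor Dab2 (0.86), Anxa2 (0.85), Cenpb (0.84) and Lrrc59 (0.84). Of the members, Cd44 followed Spp1 at 0.75 and Itga5 followed Fn1 at 0.79, and Spp1 and Fn1 followed each other at 0.60. These correlations describe sums that share 2 libraries, their depth and their free RNA, and the points are not independent.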

How the data were processed

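The deposited tables held raw UMI counts per gene symbol and barcode for a sham and a 3 dpi library; the submitters' processing notes list Seurat and Cell Ranger, with no version, beside the human build GRCh38, although the symbols are mouse symbols. The sources used here do not say which cells the authors kept, and no row was mitochondrial. Barcodes with at least 200 genes and 500 UMIs were kept, doublets were scored against simulated doublets and the expected number (0.8% per 1000 cells) was removed: 820 sham and 1476 3 dpi cells. Both libraries were clustered together (2000 variable genes without members, list genes, ribosomal or sex-linked genes, 30 components, 15 neighbours, Leiden resolution 1), which gave 30 clusters. A cluster was named for the class with the highest mean log2 marker level relative to the median cluster, given at least 3 markers 2-fold up and seen in 10% of its cells, and was left unnamed where another class with 50% of its markers up came as near as 1 log2 unit, or led its top genes. An exception, set after the data were seen, let cluster 0 keep the monocyte/macrophage name beside border-associated markers. The report gives values without it for Spp1, Fn1, Cd44, Itga5, Itgb1 and Itga9. The number of clusters that stayed unnamed was 3.

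The members and lists were chosen with earlier results of these data known. All members are named; of other genes, the 5 closest in pattern to Spp1 and to Fn1, and per list and class at most 3 past the 2-fold limit with 100 CPM. Counts per class were summed and scaled to CPM; 16 alternatives were run where they apply, 2 of them chosen after the data were seen, and cells were called male- or female-derived from sex-linked UMIs. The size rule was tested on simulated data. Tools were leidenalg 0.10.2 on igraph 0.11.9, scikit-learn 1.9.0, scipy 1.17.1, numpy 2.4.6 and pandas 2.3.3 under Python 3.11.15, with matplotlib 3.10.9 for figures.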

Additional observations from a re-analysis of the deposited data

Results flagged for a closer look

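Itgb5 passed the 2-fold limit in opposite directions in 2 classes: its log2 ratio of 3 dpi over sham was 1.14 in endothelial-like cells (8.82 to 31.6 CPM) and -1.14 in microglia-like cells (1035 to 463 CPM). With 1 library per group the difference was not tested. Over the alternatives the endothelial-like value ranged from 0.75 to 1.73 and the microglia-like value from -1.25 to -0.95. The endothelial-like cells held 52 sham and 236 3 dpi UMIs, and the microglia-like cells 9343 and 16890.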

How the results depend on the processing

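The microglia-like share of Spp1 UMIs at 3 dpi (55.0%) was 55.5% with a stricter cell filter, 49.9% with doublets kept, 56.2% with free RNA subtracted, 59.7% in male-derived and 50.4% in female-derived cells. The monocyte/macrophage-like share of Fn1 UMIs (23.5%) was 23.2%, 21.7%, 16.4% and 26.4% under the first 2 and the last 2 of these, and 12.9% with cluster 0 left unnamed. The monocyte/macrophage-like share of Spp1 UMIs (40.6%), whose alternatives were all added after the data were seen, was 40.2%, 37.3%, 41.4%, 35.5% and 45.2% under the same settings in the order given for microglia-like cells, and 3.28% with cluster 0 left unnamed, since that cluster holds most of the class's Spp1 UMIs. Leaving it unnamed was a choice made after the data were seen. Members called higher fell from 3 to 1 in oligodendrocyte-like cells with free RNA subtracted and rose from 3 to 5 in endothelial-like cells with median-of-ratios scaling; the log2 ratio of Spp1 in endothelial-like cells turned to -0.037 with free RNA subtracted. The cause of these shifts was not tested, and those with free RNA subtracted depend on the assumed 5%. Of 360 log2 ratios over all alternatives, 278 stayed within the counting interval, 81 moved outside it and 1, the endothelial-like Spp1 ratio above, reversed; 9 turned sign or went to 0 and 16 changed their call. The Spp1 ratio in microglia-like cells was 11.22 without the 8 sham cells of cluster 2, against 7.87 with them. Without the filter on low values, 4.47% of all genes were higher in microglia-like cells. No paired analysis was possible because each group is 1 library. Depth limits the receptor pairs, which few cells thinned to 1000 UMIs hold.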
